A study of Drosophila melanogaster with 4 samples.

Results

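Ribosome footprints were set against mRNA, gene by gene, in ovaries of wild-type Drosophila melanogaster, with 1 footprint library and 1 mRNA library. The labels give the strain as W1118 and the genotype as wild-type for both libraries, and they give neither the age of the flies nor how many were pooled. The comparison covered the genes with an mRNA value of at least 5, which were 2771 of the 2860 genes listed. Translation efficiency was taken as log2((footprint value + 1)/(mRNA value + 1)), so that a value of 0 stands for equal footprint and mRNA values and each step of 1 for a 2-fold change in their ratio. The series holds 4 libraries in all, and those of NSUN2 knockout ovaries were not analysed here.

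A ribosome shields the stretch of mRNA it sits on from nuclease, and the protected fragments, here 28 to 30 nt long, count the ribosomes on each message. The ratio of footprints to mRNA therefore reads how heavily a message is loaded with ribosomes, and it does not tell fast initiation from slow elongation. In the fly ovary, nurse cells load the oocyte with maternal messages, many of which are kept silent by RNA-binding proteins until a later stage, while follicle cells around them make the eggshell. The mark m5C is a methyl group on cytosine, which enzymes of the NSUN family and a tRNA methyltransferase place on RNA.

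Every listed gene carried an m5C level of at least 0.1, so genes without a listed level were not analysed here. The values follow reads divided by a length, and reads were recovered from them as lower limits, because a factor common to reads and length cancels. Summed over all 2860 genes, the footprint library held at least 1066536 reads, or at least 122 in the median gene, and the mRNA library at least 3811305, or at least 719 in the median gene. The reference table paired 18 of the 2860 identifiers with a symbol, 17 of them above the mRNA minimum. None of the germline, follicle cell, muscle, fat body, testis, gut or nerve markers that had been listed was among the 18, so the tissue label could not be checked against markers. With 1 library per assay there is no replicate error, no p-value was computed, and intervals cover counting error only.

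Translation efficiency differed widely between messages of wild-type ovaries. Its median was -0.21, the 10th percentile was -2.15 and the 90th percentile 1.90, a 16.5-fold spread in footprints per mRNA, or 8.23-fold with a pseudocount of 10. The inner range from the 25th to the 75th percentile was 4.26-fold, and the range from the 1st to the 99th percentile 149-fold. The spread from the 10th to the 90th percentile was 13.9-fold with a footprint minimum of 5 as well. It was 11.8-fold in the 1872 genes with at least 50 recovered reads in both libraries. Minimum mRNA values of 1, 20 or none and a pseudocount of 0.1 gave 16.8-fold to 18.6-fold. The distribution was close to symmetric around a broad peak, with a skewness of 0.11 and an SD over genes of 1.56 on the log2 scale. Footprint values exceeded mRNA values after the pseudocount of 1 in 1254 genes, or 45.3%, but this share depends on how the libraries were scaled, and the median is the reference used below.

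Of the 2771 genes, 736 (26.6%) lay at least 2-fold above the median translation efficiency and 698 (25.2%) at least 2-fold below it. At least 4-fold above were 316 genes (11.4%), and at least 4-fold below were 256 (9.24%). Counting error was small beside this spread. In the 2764 genes with reads recovered in both libraries, the median counting standard error of the log2 ratio was 0.15, and the mean counting variance was 4.22% of the variance of translation efficiency. Because the reads are lower limits, these errors are upper limits. The 95% counting interval of the footprint-to-mRNA ratio lay above the median ratio of 0.861 in 1168 genes (42.3%) and below it in 1069 (38.7%), and it held the median in 527.

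**Figure D1:**
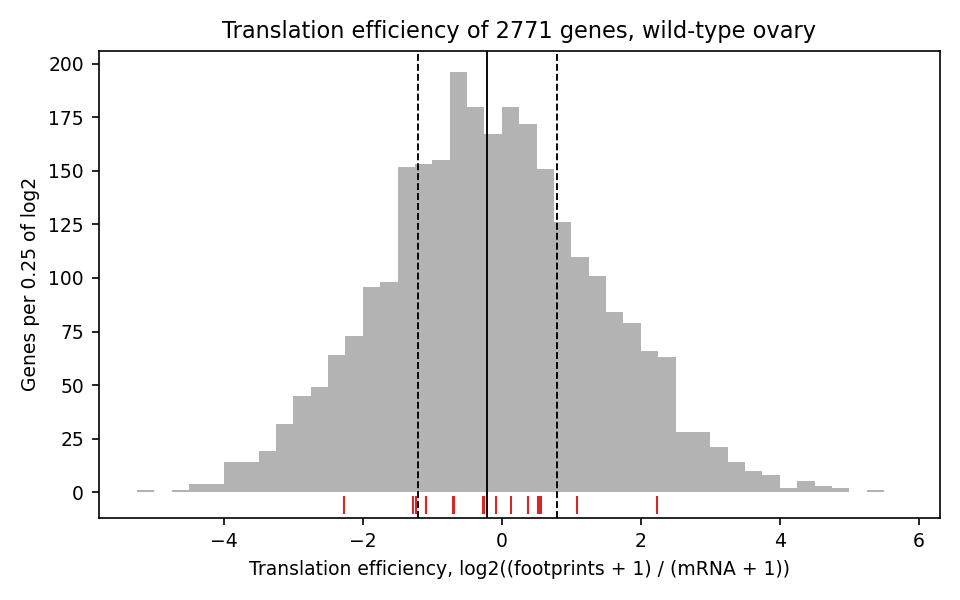
Number of genes (vertical axis) in bins of translation efficiency (horizontal axis, log2) for 2771 genes in wild-type ovary. The solid line is the median of -0.21, the dashed lines stand 2-fold below and above it, and the red ticks under the axis are the 17 genes with a symbol. The genes form a single broad peak with similar tails on both sides.

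Footprints and mRNA ranked the genes alike only in part. Across the 2771 genes, which share the same pair of libraries and are not independent replicates, Spearman's rho between footprint and mRNA values was 0.477, and Pearson's r of the log2 values was 0.56. The mRNA level thus had 31.9% of the variance of log2 footprints in common with it. Footprint values were spread more widely than mRNA values, with a 27.6-fold range from the 10th to the 90th percentile against 10.6-fold, and an SD of 1.84 against 1.39 on the log2 scale. The minimum of 5 cut low mRNA values but not low footprint values. The footprint library also held fewer recovered reads, at least 122 in the median gene against at least 719. The part of either in this difference was not tested.

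The most abundant messages and the most heavily occupied ones were only partly the same. Of the 277 genes with the highest mRNA and the 277 with the most footprints, 137 were on both lists, 49.5% of each. Each list, here and below, holds 277 of the 2771 genes, and unrelated lists would share about that proportion. At the low ends of both assays 72 genes were shared, 25.99% of each list. Full crossings were rare, since 3 genes combined footprints among the highest 277 with mRNA among the lowest 277, and 2 genes showed the reverse. Footprints were also held by fewer genes. The highest 277 carried 61.7% of the summed footprint values, against 55.2% of summed mRNA for its own highest 277, and 151 genes held 50% of the footprint sum where 193 genes did so for mRNA.

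**Figure D2:**
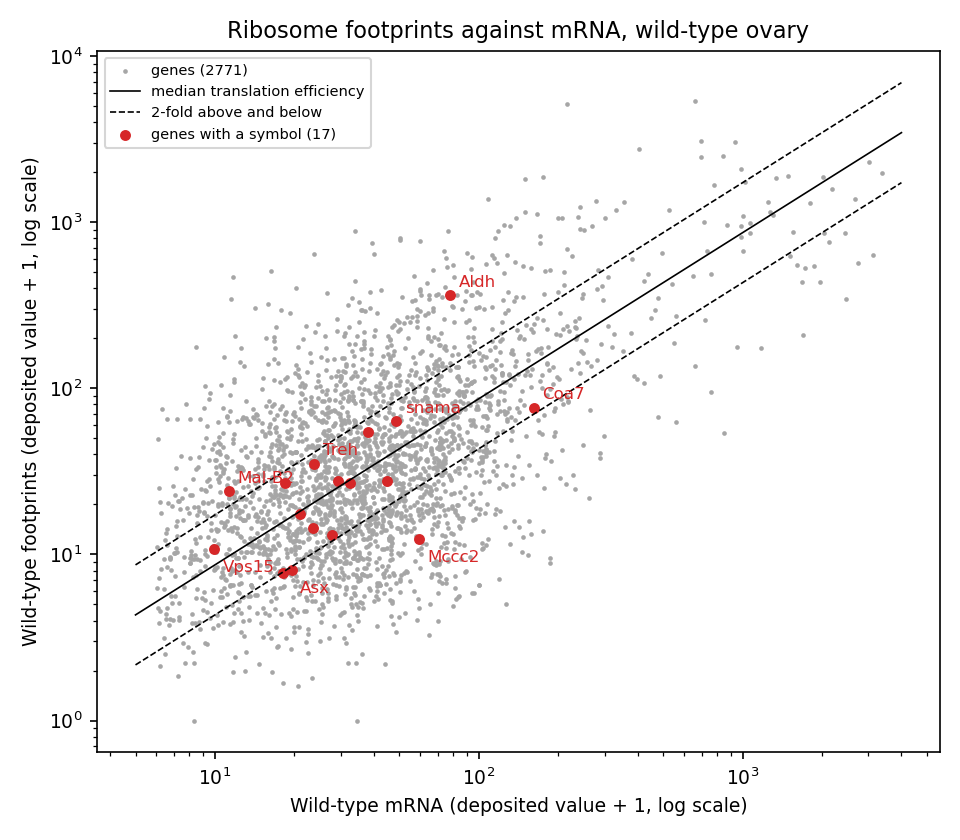
Footprint value + 1 (vertical axis, log scale) against mRNA value + 1 (horizontal axis, log scale), 1 grey point per gene for 2771 genes, with the 17 genes that have a symbol in red. The solid line marks the median translation efficiency and the dashed lines 2-fold above and below it. Genes at one mRNA level span a wide range of footprints, Aldh lies above the upper line and Mccc2 below the lower one, and the 2 points at the bottom are the genes listed at 0 footprints.

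The extremes of each assay show this split. The 5 genes with the highest mRNA, at 2671 to 3386, had footprint values from 569.8 to 2287, and all 5 were below the median translation efficiency, at -2.30 to -0.40. The 5 genes with the most footprints, at 2772 to 5385, had mRNA values from 216 to 935 and were all above the median, at 1.70 to 4.56. No gene belonged to both groups of 5. Each group was picked by a term of the ratio, so its side of the median is in part set by the choice.

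Translation efficiency was higher among messages of low abundance. With the genes in 5 groups of equal size by mRNA value, the median translation efficiency was 0.47 in the lowest group (mRNA 5.04 to 16.61, 555 genes), -0.03 in the second, -0.34 in the third, -0.59 in the fourth and -0.51 in the highest (mRNA 74.5 to 3386, 554 genes). The median footprint value rose over the same groups, from 15.2 through 22.05, 28.3 and 37.7 to 95.3, but by less than mRNA, whose medians went from 11.1 to 117. In the lowest group 42.7% of genes were at least 2-fold above the overall median and 10.5% at least 2-fold below, and in the highest group 17.7% and 33.4%. Spearman's rho of translation efficiency with mRNA was -0.241 across the 2771 genes.

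**Figure D3:**
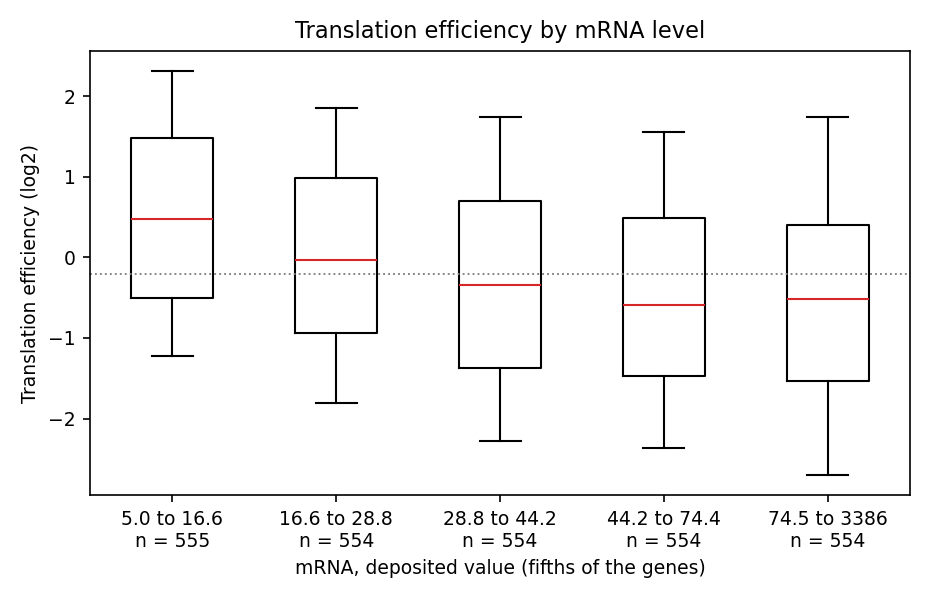
Translation efficiency (vertical axis, log2) in 5 groups of genes by mRNA value (horizontal axis, with the range of mRNA values and the number of genes). Boxes run from the 25th to the 75th percentile with the median in red, whiskers from the 10th to the 90th, and the dotted line is the median of all genes. The medians fall from 0.47 in the lowest group to -0.59 in the fourth and are -0.51 in the highest, and the whiskers overlap throughout.

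This relation has mRNA on both sides, as level and as denominator, so error in the mRNA value alone moves it below 0. Its sign also depends on the measure of level. Against the mean of the log2 footprint and log2 mRNA values, rho was 0.350. A relation with this mean takes its sign from the assay of wider spread, here footprints (SD 1.84 against 1.39). The minimum of 5 cut low mRNA values only, so this measure does not treat both assays alike either. The least-squares slope of log2 footprints on log2 mRNA was 0.75, while the ratio of their SDs was 1.33. Within the 5 mRNA groups rho of translation efficiency with mRNA ran only from -0.086 to 0.035. The footprint spread from the 10th to the 90th percentile was 14.2-fold to 17.9-fold within the lower 4 groups, across which mRNA itself varied at most 3.30-fold within a group, and it was 44.8-fold in the highest. In the third group, for example, mRNA values differed at most 1.54-fold between genes, beside a footprint spread of 17.9-fold.

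At the upper end stood FBgn0250789, with a footprint value of 469 on an mRNA value of 10.8. Its ratio of 43.6 (95% counting interval 40.9 to 46.6, from at least 10226 footprint reads and at least 1014 mRNA reads) was the highest of all, at a translation efficiency of 5.32, and its listed m5C level was 0.941. FBgn0036624 followed with 509.7 footprints on 15.4 mRNA, a ratio of 33.2 (29.8 to 37.1), a translation efficiency of 4.97 and an m5C level of only 0.133. The tables give identifiers without names, and neither of these 2 was named in the reference table.

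The 15 genes of highest translation efficiency had values from 3.99 to 5.32, at least 18.4-fold above the median gene. Their mRNA values ran from 7.49 to 216 with a median of 16.9, and their footprint values from 176 to 5120 with a median of 469. Each had at least 861 recovered footprint reads. All 15 counting intervals lay above the median ratio, against 42.3% of the 2764 genes with reads recovered in both libraries. The 15 were chosen by footprints over mRNA, so the side of their intervals gives no support of its own. Of the 15, 7 came from the lowest of the 5 mRNA groups, 3 from the second lowest and 1 from the highest. That 1 gene had the second highest footprint value of all, 5120 on an mRNA value of 216, with an m5C level of 0.874.

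At the lower end, FBgn0033086 was listed at 0 footprints with an mRNA value of 33.4 from at least 176 reads. Its translation efficiency of -5.10 was set by the pseudocount and gives no fold. Another gene above the mRNA minimum was listed at 0 as well, at a lower mRNA value of 7.31 and a translation efficiency of -3.06. The lowest gene with a footprint value was FBgn0035965, with 4.06 footprints on 125 mRNA. Its ratio was 0.0324 (95% counting interval 0.0146 to 0.0627), 21.6-fold below the median gene in translation efficiency, and it rests on at least 9 footprint reads.

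The 14 of the 15 lowest genes that had footprints ran from -4.64 to -3.94, with footprint values from 1.196 to 52.6 on mRNA values from 33.3 to 849.98. All 14 counting intervals lay below the median ratio, against 38.7% of the 2764 genes with reads recovered in both libraries. These genes too were chosen by footprints over mRNA, so the side of their intervals gives no support of its own. Their recovered footprint reads were few, at least 1 to at least 39. As lower limits, these do not show how few the reads were. Of the lowest 15, 10 came from the highest of the 5 mRNA groups and 0 from the 2 lowest groups. Both ends were chosen by a ratio with mRNA as its denominator, so their mRNA levels are in part set by the choice. At the lower end, with a pseudocount of 1, a message of low mRNA value can hardly reach the lowest 15. How large the part of the choice is was not tested.

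Over the 277 highest and the 277 lowest genes, chosen in the same way, the median mRNA value was 27.2 in the highest and 57.1 in the lowest, while the median footprint value was 176 against 6.55. In the 278 genes around the middle the medians were 35.6 for mRNA and 31.2 for footprints. The highest genes were drawn from all 5 mRNA groups, 92 from the lowest and 46 from the highest, and the lowest genes gave 13 and 98. The median footprint reads were at least 822 at the upper end and at least 22 at the lower. Single genes may be placed less precisely among the lowest, but reads known only as lower limits do not measure this. Of the 277 lowest, 273 counting intervals lay below the median ratio, against 38.7% over all genes with recovered reads. Above it lay 274 of the 277 highest, against 42.3%. Both sets were chosen by footprints over mRNA, so these counts follow from the choice and give no support of their own.

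The listed m5C level set apart neither end. Its median was 0.261 in the 277 highest genes, 0.275 in the 277 lowest and 0.283 in the 278 around the middle, against 0.268 over all 2771. A level of at least 0.6 was listed for 47 of the highest genes (16.97%), 52 of the lowest (18.8%) and 481 of all (17.4%). The 15 highest and the 15 lowest genes each held 2 such genes.

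Across all genes, translation efficiency hardly followed the m5C level. Spearman's rho was 0.012 for translation efficiency, -0.093 for mRNA and -0.061 for footprints, each over 2771 genes of the same libraries. With the rank of mRNA taken out, rho of m5C level and translation efficiency was -0.010, and with recovered lengths taken out too it was -0.029. The median translation efficiency was -0.27 in the 1001 genes with m5C levels from 0.1 to 0.2 and -0.17 in the 869 from 0.2 to 0.4. It was -0.13 in the 420 genes from 0.4 to 0.6 and -0.22 in the 481 at 0.6 and above. These medians lay within 0.15 of each other on the log2 scale, beside an SD of 1.54 to 1.58 within each group, and they neither rose nor fell steadily with m5C level.

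**Figure D4:**
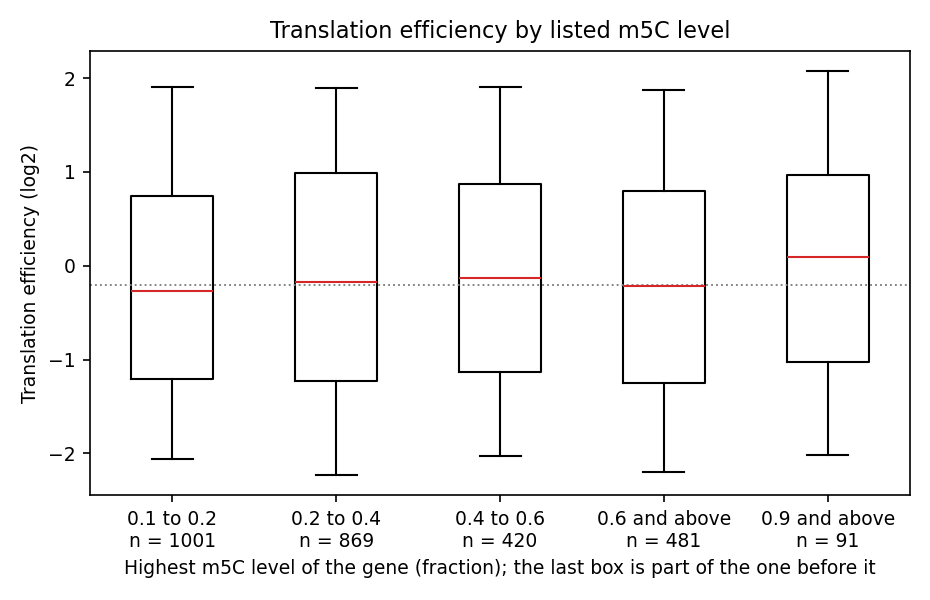
Translation efficiency (vertical axis, log2) in groups of genes by their highest listed m5C level (horizontal axis, fraction, with the number of genes). Boxes run from the 25th to the 75th percentile with the median in red, whiskers from the 10th to the 90th, and the dotted line is the median of all genes; the 91 genes at 0.9 and above are also part of the group at 0.6 and above. The boxes overlap almost fully, with medians from -0.27 to 0.10.

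The 91 genes with an m5C level of at least 0.9 had a median translation efficiency of 0.10, beside -0.21 over all genes and an SD of 1.59 among themselves. Of the 91, 28.6% were at least 2-fold above the median and 20.9% at least 2-fold below, against 26.6% and 25.2% over all. They also had less mRNA, with a median of 26.5 against 34.7, and the part of this in their translation efficiency was not tested. The 5 genes with the highest levels, 0.978 to 0.991, lay on both sides of the median, 3 above and 2 below, from -1.78 to 1.09. Within the 5 mRNA groups, the median of the genes at 0.6 and above minus that of the genes at 0.1 to 0.2 was 0.14, -0.36, 0.03, -0.19 and 0.10 from the lowest group to the highest, with no common sign.

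The 17 genes that could be named lay between percentiles 8.77 and 93.03 of translation efficiency. They are described because a symbol was given for them, not for their values, and they stand for no pathway. Relative to the median of all genes, 2 of the 17 were at least 2-fold above and 3 at least 2-fold below, where 26.6% and 25.2% of all genes were. With a pseudocount of 10 these counts were 1 and 1, as Mal-B2, CG42271 and Asx came within 2-fold, and with a footprint minimum of 5 they were 2 and 5. With at least 50 recovered reads in both libraries 10 of the 17 remained, 0 above and 1 below, the latter being Coa7. Recovered reads are lower limits, so this filter also drops genes whose reads are underestimated. It dropped Aldh, at 42 recovered footprint reads over a recovered length of 13, so the 0 above does not cover Aldh. The counting interval of the ratio lay above the median ratio in 6 of the 17, below it in 5 and around it in 6, where 42.3% of all genes lay above and 38.7% below. The median translation efficiency of the 17 was -0.26, close to the -0.21 of all genes.

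Among the enzymes of metabolism, Aldh, the mitochondrial aldehyde dehydrogenase that clears acetaldehyde, was the most heavily occupied of the named messages. Its footprint value was 364 on an mRNA value of 77.04, a ratio of 4.73 (95% counting interval 3.40 to 6.42) and a translation efficiency of 2.23, at percentile 93.03 of all genes. Mccc2, a carboxylase subunit of leucine breakdown, stood at the other end of the named genes with 11.3 footprints on 58.2 mRNA. Its ratio was 0.194 (0.130 to 0.280) and its translation efficiency -2.27, at percentile 8.77. The difference between these mitochondrial enzymes was 22.5-fold in translation efficiency, and their mRNA values were much closer to each other than their footprints.

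Both sugar-splitting enzymes among the named genes lay above the median. Mal-B2, a maltase, had 22.99 footprints on 10.3 mRNA, a ratio of 2.23 (1.78 to 2.79), and an m5C level of 0.628. Treh, which splits trehalose, the circulating sugar of insects, had 34.2 on 22.8, a ratio of 1.501 (1.24 to 1.81), with an m5C level of 0.176. Their intervals overlapped narrowly, and both excluded the median ratio of 0.861. AMPKalpha, the catalytic subunit of the kinase that senses low cellular energy, had a ratio of 1.45 (1.27 to 1.65), within the interval of Treh. Coa7, whose human counterpart helps assemble cytochrome c oxidase, had the highest mRNA value of the 17, at 161, and 75.5 footprints. Its ratio of 0.468 (0.373 to 0.581) lay below the median.

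Of the list of chromatin and transcription genes, pps, MED1 and Asx were named, too few to describe the list. The message of pps, a protein with a PHD finger, had a ratio of 1.495 (1.30 to 1.73), from 25.98 footprints and 17.4 mRNA, together with the highest m5C level of the 17, 0.743. MED1, a subunit of the Mediator complex that links transcription factors to RNA polymerase, had 0.828 (0.627 to 1.08), an interval that held the median ratio. Asx, a Polycomb-group protein that works with a histone H2A deubiquitinase, was the lowest of the 3 at 7.09 footprints on 18.6 mRNA. Its ratio was 0.381 (0.235 to 0.585), so pps and Asx, at nearly equal mRNA values, differed in ratio by more than their counting intervals. Mau2, which helps load cohesin onto chromosomes and came from the list of cell cycle genes, had 0.942 (0.772 to 1.15), and its interval held the median ratio.

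Of the genes of protein turnover and membrane traffic, snama, which encodes an RBBP6-like RING finger protein, was above the median ratio at 1.31 (1.19 to 1.44). Vps15, the regulatory subunit of a phosphatidylinositol 3-kinase, had 1.10 (0.855 to 1.42). GAPcenA, a GTPase-activating protein for Rab proteins, had 0.820 (0.547 to 1.19), and the ubiquitin ligase gene Herc4 0.609 (0.332 to 1.03). The intervals of these 3 genes held the median ratio. That of Herc4 rests on at least 14 footprint reads over a recovered length of 59, and is too wide if these are underestimated. Among the genes known by number, CG7091 had 0.601 (0.453 to 0.786) and CG42271 0.392 (0.225 to 0.6499), both below the median ratio. CG8516 had 0.449 on at least 3 footprint reads over a recovered length of 28, with an interval from 0.0925 to 1.32. This interval holds the median ratio but is too wide if the reads are underestimated, so it does not place the gene. Meltrin, an ADAM-family metalloprotease gene, missed the mRNA minimum at 4.24 and had a footprint value of 15.1.

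**Figure D5:**
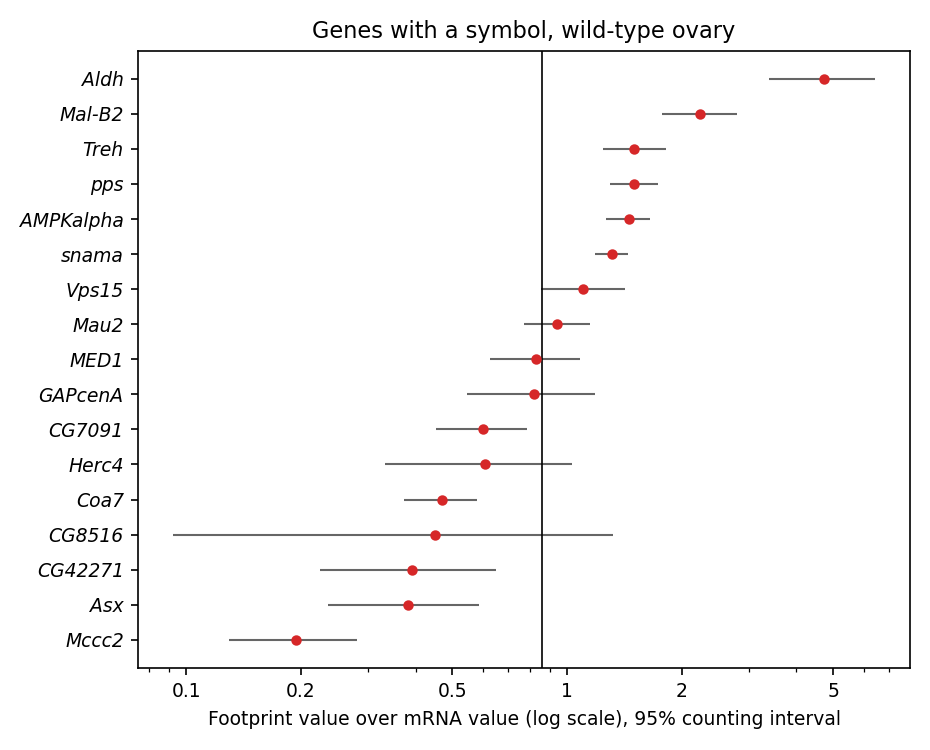
Footprint value over mRNA value (horizontal axis, log scale) for the 17 genes with a symbol, in order of translation efficiency. Bars are 95% counting intervals from recovered reads, which are too wide where reads are underestimated, and the vertical line is the median ratio of 0.861 over all genes. Aldh at 4.73 and Mccc2 at 0.194 are the extremes, and 6 intervals cross the line.

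Genes of greater recovered length tended to have less mRNA. Translation efficiency rose weakly with that length over all genes, but not among those with at least 50 recovered reads. Recovered coding length, a lower limit in codons, had a rho of -0.278 with mRNA and 0.157 with translation efficiency over 2764 genes, and 0.097 with the rank of mRNA taken out. Its median was 562.5 in the 277 highest genes and 357 in the 277 lowest. With at least 50 recovered reads in both libraries, rho with translation efficiency was -0.015. Length enters the scaling of both values, and the part of this in the relation was not tested.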

How the data were processed

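Wild-type ovaries gave 1 library of footprints and 1 of poly(A) mRNA. Per the labels' protocols, footprints came from the monosome peak after micrococcal nuclease, which prefers some bases, and mRNA was sequenced with a directional kit. The build dm3 and the tools cutadapt, TopHat2 and HTSeq appear in the submitters' processing notes, and no source here states the annotation or how multi-mapped reads were treated. The deposited values are a signal per gene scaled by the authors to depth and length, TPM or a kind of FPKM. The deposited m5C level is a fraction, the maximum for the gene per the file headers, with site, sample and coverage unknown.

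Reads were recovered with a relative tolerance of 1e-09, since each value is 1 constant times reads over length. Whole reads were found for 2855 of 2857 footprint values above 0 and 2854 of 2860 mRNA values, against 53 and 229 with a slightly moved constant. Constants were chosen so that small primes divide reads and lengths equally often, and the step was tested on simulated data. In 5 simulations per library the constant was found each time. Recovered reads were exact for 60.6% of footprint values and 61.0% of mRNA values, and too low for 39.4% and 39.0%. Footprint lengths were taken as codons. Ratio intervals are Clopper-Pearson intervals of the share of footprint reads, without the pseudocount. Correlations are across genes, as a description.

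Genes to be named were the 15 highest and 15 lowest, the 5 highest by mRNA, footprints and m5C, the 2 on each side of the mRNA minimum and the extremes of 22 gene lists, but for want of symbols only 2 identifiers from each end and all 18 symbols are printed. Of the lists, 4 held a named gene and 0 held the 5 needed. Protein length was not used here. The mRNA minimum, members and lists were chosen with earlier results of these data known. Just inside the minimum, mRNA values were 5.04 and 5.05, with translation efficiencies of 0.05 and 0.88. Just outside, values of 4.99 and 4.99 had 0.74 and 0.04. Python 3.11.15, SciPy 1.17.1 and pandas 2.3.3 were used.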

Additional observations from a re-analysis of the deposited data

How the results depend on the processing

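No paired analysis was possible because footprints and mRNA came from 1 library each, and no replicate could be left out. Counts and the 16.5-fold range were called unmoved within 1.5 times, correlations within 0.05. Of 56 values that answer a comparison, 41 stayed so. A pseudocount of 10 gave a range of 8.23-fold and 462 genes at least 2-fold below the median; a larger pseudocount shrinks ratios of low values. The 4-fold rule gave 316 above and 256 below. With at least 50 recovered reads in both libraries, chosen after seeing the data, 459 were above and 419 below. Fewer genes entered, and genes whose reads are underestimated were dropped as well. The rank correlation of translation efficiency with mRNA was -0.341 there, -0.120 with a minimum mRNA value of 20 and -0.323 with a footprint minimum of 5 as well. Pearson's r of footprints and mRNA was 0.565. The rank correlation with m5C level changed sign to -0.013 with the minimum of 20, to -0.010 with mRNA taken out and to -0.0078 with coding length taken out. The rank correlation with coding length changed sign to -0.015 with 50 reads and was 0.097 with mRNA taken out, the cause of which was not tested. Of 107 values of named genes relative to the median, 102 kept their sign and moved by at most 1.5-fold. Calls of the named genes at 2-fold changed as given above, and the minimum of 20 left 12 of them, 1 above and 1 below. The minimum of 20 turned MED1 to 0.11 and GAPcenA to 0.11, the footprint minimum turned Mau2 to -0.017, and 50 reads turned Vps15 to -0.14 and Mau2 to -0.35; the median moved with the genes that entered. Gene list medians and protein length could not be run. Over the 2764 genes with recovered reads, 843 had fewer than 50 footprint reads as lower limits. This count does not measure depth alone, because a factor common to reads and length cancels. Recovered footprint reads were fewest at the lower end. Under 50 were 215 of the 277 lowest genes and 8 of the 277 highest, counting genes without recovered reads.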

Other observations

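The 89 genes below the mRNA minimum had a median mRNA value of 3.22 and a median footprint value of 8.14. Their translation efficiency had a median of 1.06, above the -0.21 of the genes past the minimum, with a 10th percentile of -0.22 and a 90th of 3.17. The 89 genes were set apart by a low mRNA value, which is the denominator, so their higher median is in part set by the choice. Of the 89, 1 was listed at 0 footprints. The highest footprint value among them was 149.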
